A study of Mus musculus with 48 samples.

Results

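Lin28b, Igf2bp1, Igf2bp2, Igf2bp3, Hmga2 and Arid3a of the fetal growth program, and Bcl11a, Zbtb7a and Sox6, which repress globin genes, were followed through single mouse fetal liver cells labelled as erythroid progenitors. They were chosen by symbol and are 9 of the 24062 genes in the count table, and all 9 symbols were found. RNA had been sequenced from 48 single cells of fetal liver, all labelled BFU-E, the burst-forming unit that stands at the start of the red cell lineage. The study looked for subpopulations of BFU-E. The cells came from embryos of day 14.5, with no transgene, knockout or drug named for them, and form 1 group. The sort kept cells with c-Kit and with CD71 among the lowest 10 percent, and depleted cells with lineage or stem cell surface markers, namely CD34, CD41, CD3, B220, Sca-1, Ter119, Mac-1, Gr-1 and CD16/CD32. The labels name no embryo, litter, chip or batch and the columns of the table match no cell title, so the 48 cells count as 1 sample and no p-value is given.

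LIN28B is an RNA-binding protein of fetal cells that holds back the maturation of let-7 microRNAs. The let-7 family in turn binds messengers through its seed and lowers them, and Hmga2, the Igf2bp genes, Arid3a and Lin28b itself are classical targets. The IGF2BP proteins bind, stabilise and move messengers, and HMGA2 is an architectural chromatin protein of fetal stem cells and progenitors. In the red cell lineage, BCL11A and ZBTB7A (also called LRF) silence embryonic or fetal globin genes, in part through the NuRD complex, and SOX6 works with BCL11A. In human red cell precursors, raised LIN28B is known to hold up fetal globin.

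The sequences that tie the fetal genes to let-7 are given first. The 6 fetal genes were known as let-7 targets beforehand, so matches in them are no finding of these data. In RefSeq for GRCm38.p6, 9 mature microRNAs named let-7 or miR-98 were picked because they hold the let-7 seed at bases 2 to 8. In the same source 11 mature microRNAs of any name hold it. The seed is shown in capitals in 4 of the 9.
let-7a: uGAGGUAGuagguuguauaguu
let-7b: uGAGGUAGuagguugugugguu
let-7d: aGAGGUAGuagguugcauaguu
let-7g: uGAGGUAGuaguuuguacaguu
The reverse complement of this seed, written CTACCTC, was searched on the transcript strand of the longest annotated 3′ UTR of each gene in GENCODE M21 for GRCm38. The first match of each fetal gene is shown with its flank, on the strand of the transcript, with the seed match in capitals.
Lin28b, chr10:45381022-45381051, minus strand: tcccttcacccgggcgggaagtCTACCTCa
Igf2bp1, chr11:95961778-95961807, minus strand: aggcagtgctgtgcgaagtaaaCTACCTCa
Igf2bp2, chr16:22059473-22059502, minus strand: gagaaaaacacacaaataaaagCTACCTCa
Igf2bp3, chr6:49086787-49086816, minus strand: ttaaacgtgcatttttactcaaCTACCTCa
Hmga2, chr10:120364224-120364253, minus strand: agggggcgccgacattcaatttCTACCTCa
Arid3a, chr10:79953888-79953917, plus strand: cacatgcaaggcaagtttctttCTACCTCa
In each of these 6 the seed match is followed by an adenine, the base known to favour microRNA targeting. Over all 16 matches of the 6 genes, 8 were followed by an adenine, among them 1 of 4 in Lin28b, 3 of 4 in Igf2bp1 and 1 of 4 in Hmga2.

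Lin28b, Igf2bp1 and Hmga2 each held 4 matches, Arid3a held 2, and Igf2bp2 and Igf2bp3 held 1 each. Bcl11a, Zbtb7a and Sox6 held 0, although their 3′ UTRs of 3263, 3787 and 6046 bases are as long as those of the fetal genes, which run from 1784 to 6337 bases. Of the 19297 genes of the table with an annotated 3′ UTR, 10.3% held a match and 12 genes held 4 or more. Among the 6190 genes whose 3′ UTR lies in the same length range, 18.3% held a match. A match of letters describes the sequence and is not a measured binding site, and a UTR without these letters may hold other sites.

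**Figure D1:**
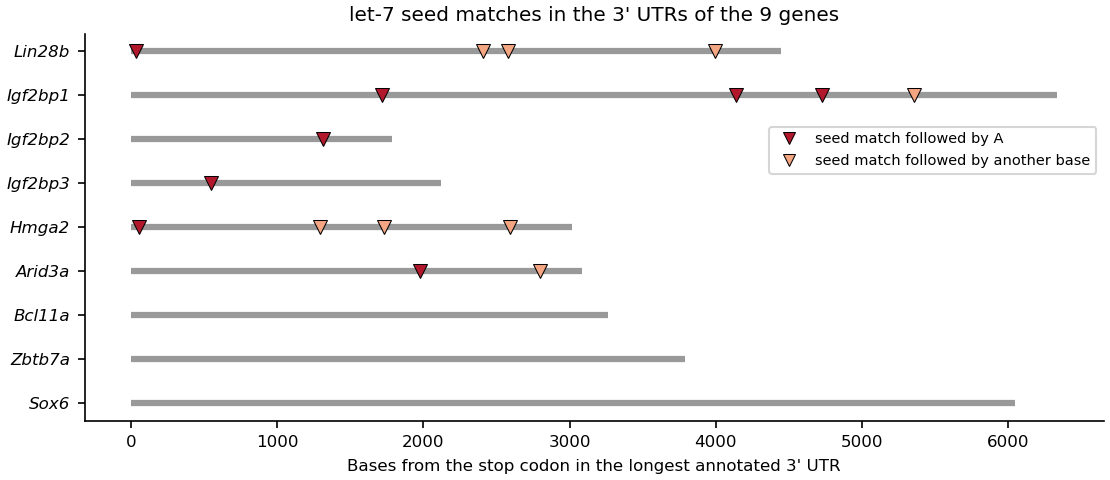
Position of let-7 seed matches, in bases from the stop codon (x axis), along the longest annotated 3′ UTR of each of the 9 genes (grey bars, to scale). Dark triangles mark matches followed by A and pale triangles the others. The 6 fetal genes hold 1 to 4 matches each, and Bcl11a, Zbtb7a and Sox6 hold 0.

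The cells had total counts of 246007 to 3211186 and reads of 5180 to 7935 genes, so a gene at 1 read in a cell is near the limit of what the assay shows. Levels are given in CPM, the usual scaling of counts to a common library size, here with TMM factors, and as the mean of log2(CPM + 1), which understates differences of genes at low level. Gata1, the master regulator of the red cell lineage (chrX:7959260-7978071), was used to order the cells. The 28 Gata1-high cells held 10 CPM or more, with a median of 359 CPM, and the 18 Gata1-low cells held less, with a median of 0.716 CPM. The cells next to the limit had 16.3 and 22.5 CPM above it and 9.31 and 5.50 CPM below it. Another 2 cells with 1000 CPM or more of the C1q genes were macrophage-like and were kept apart. A further cell with 381 CPM of the C1q genes stayed in the Gata1-high set. These sets were cut from the cells' own transcripts and are not labelled groups.

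Gata1 level moved with granulocyte transcripts. The summed level of Mpo, Elane, Prtn3 and Ctsg, the granule genes of early neutrophils, reached 1000 CPM in 3 of 28 Gata1-high cells and in 16 of 18 Gata1-low cells. Its median was 75.2 CPM in Gata1-high and 6329 CPM in Gata1-low cells. All 11 neutrophil and monocyte markers that passed the filter on low values were lower in Gata1-high cells by 1 log2 unit or more. Elane, Irf8, Cebpa and Ly6c2 had means of 3.00, 0.17, 0.29 and 0.07 CPM in Gata1-high cells. These passed the filter only through the cells where they are high, so their direction carries no separate support. Summed over that list, the cells ran from 7.28 to 8347 CPM in the Gata1-high set and from 27.5 to 72832 CPM in the Gata1-low set. A difference by Gata1 level therefore cannot be told apart here from a difference by granulocyte transcripts, and values in granule-low cells, under 1000 CPM of the 4 genes, are given beside the results. That set keeps 25 Gata1-high and only 2 Gata1-low cells, so its values rest on those 2. Of 6 erythroid markers that passed, 5 were higher in Gata1-high cells and 0 lower. The same limit holds for Klf1 and Epor, with means of 0.45 and 0.12 CPM in Gata1-low cells. Of other cell types, 2 of 2 mast cell markers, 1 of 1 hepatoblast marker and 1 of 8 macrophage markers that passed were lower. Of 4 megakaryocyte markers 1 was higher. The macrophage marker was Csf1r, which is also counted among the 11 neutrophil and monocyte markers. Over all 8600 genes that passed, 14.2% were higher and 13.1% lower by 1 log2 unit or more. For most Gata1-low cells the cell type markers go against the erythroid label, so the sets are named by Gata1 alone. Median total counts were 2074378 in Gata1-high cells and 1659078 in Gata1-low cells.

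A read was found in 46 of 48 cells for Hmga2 and for Bcl11a (95% Clopper-Pearson interval 85.7 to 99.5% each), and in 42 cells for Igf2bp3 (74.8 to 95.3%). Igf2bp1 and Zbtb7a were read in 39 cells each (67.4 to 91.1%), Arid3a in 38 (65.0 to 89.5%), Igf2bp2 in 32 (51.6 to 79.6%) and Lin28b in 30 (47.4 to 76.0%). Sox6 was read in 1 cell (0.05 to 11.1%). These intervals cover the sampling of cells only, with each cell taken as an independent draw. They do not cover differences between embryos, since the 48 cells count as 1 sample. No molecular identifiers were used, so amplified copies are counted as separate reads. Fewer cells reached 10 CPM, namely 37 for Igf2bp3, 37 for Bcl11a, 34 for Hmga2, 23 for Arid3a, 22 for Igf2bp1, 20 for Zbtb7a, 17 for Lin28b, 14 for Igf2bp2 and 0 for Sox6. Many reads were thus single events: 12 of the 39 cells with Igf2bp1 and 11 of the 32 with Igf2bp2 held 1 to 3 reads. With each cell thinned to 246007 counts, the number of cells with a read fell to 42 for Hmga2 and 41 for Bcl11a, against 46 each unthinned, and to 21 for Igf2bp2, against 32 unthinned.

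**Figure D2:**
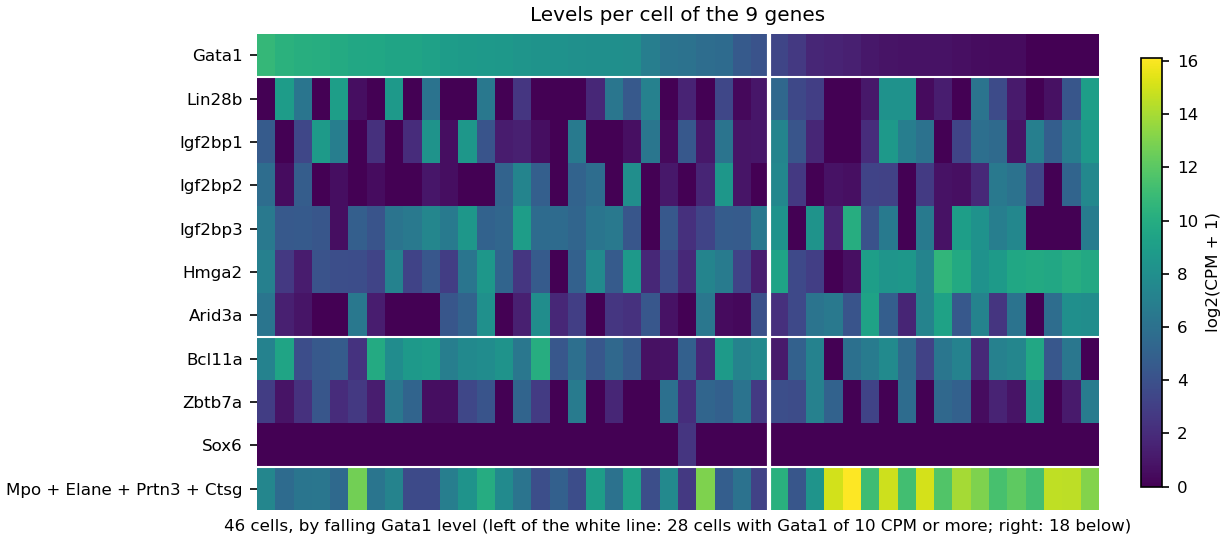
Level as log2(CPM + 1) (colour) of Gata1, the 9 genes and the summed granule genes (rows) in 46 cells (columns), ordered by falling Gata1. The 28 Gata1-high cells are left of the white line and the 18 Gata1-low cells right of it. Hmga2 is high through most of the right side, Igf2bp3 and Bcl11a are present on both sides, and Sox6 shows in 1 cell.

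Per kilobase of exon, Hmga2 had the highest mean over the 48 cells, 35.7 ± 53.2 CPM per kb (SD, n = 48 cells). Next came Igf2bp3 at 13.5 ± 22.8, Bcl11a at 12.5 ± 18.8, Arid3a at 12.2 ± 24.6 and Lin28b at 7.31 ± 15.8 CPM per kb. Igf2bp1 followed at 6.81 ± 12.3, Igf2bp2 at 4.54 ± 10.1, Zbtb7a at 4.45 ± 8.21 and Sox6 at 0.01 ± 0.05 CPM per kb. Each SD is larger than its mean, so each gene varied widely between cells, and differences between neighbours in this order were not tested. The order differs by Gata1 level: Bcl11a led in Gata1-high cells, at 15.996 ± 21.4 CPM per kb beside 9.61 ± 15.6 for Hmga2 (SD, n = 28 cells). Hmga2 led in Gata1-low cells, at 79.3 ± 64.9 CPM per kb beside 8.53 ± 13.9 for Bcl11a (SD, n = 18 cells).

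Lin28b (chr10:45376620-45486395, minus strand), the upstream regulator of the program, reached 10 CPM in a minority of cells and 100 CPM in 7. In the Gata1-high cells it ran from 0 to 530 CPM with a median of 0.74 CPM, and in the Gata1-low cells from 0 to 524 CPM with a median of 4.14 CPM. It reached 10 CPM in 9 of 28 Gata1-high and in 8 of 18 Gata1-low cells, so the sets overlap through almost their whole range. The mean was 68.1 ± 148 CPM in Gata1-high and 70.7 ± 146 CPM in Gata1-low cells (SD, n = 28 and 18 cells), a difference of −0.45 on the log2 scale and of −0.53 in granule-low cells. Its paralog Lin28a, the form of pluripotent cells, had 1 read in 1 cell.

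Igf2bp3 (chr6:49085223-49214957, minus strand) was the most widely expressed of the 3 RNA-binding IGF2BP genes. Gata1-high cells ran from 0 to 510 CPM with a median of 35.1 CPM, and Gata1-low cells from 0 to 1046 CPM with a median of 97.0 CPM. Nearly all Gata1-high cells carried some: 24 of 28 reached 10 CPM, against 11 of 18 Gata1-low cells, in which it was mostly either near 0 or strong. For that reason the mean CPM and the mean log2 level point in opposite directions, 73.7 ± 112 CPM in Gata1-high against 171 ± 264 CPM in Gata1-low cells, but a log2 difference of 0.43. In granule-low cells the log2 difference was 1.08. The Gata1-high cell at 510 CPM was the one that also held 381 CPM of C1q genes. Without that cell the log2 difference was 0.28. Exons of Igf2bp3 share 1529 bases with Malsu1 on the opposite strand. The labels do not say whether counting used strand. The rank correlation of the 2 genes was 0.21 over 46 cells, −0.01 within the Gata1-high and 0.46 within the Gata1-low cells. How far the shared bases moved the Igf2bp3 counts was not tested.

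Igf2bp1 (chr11:95957163-96005940, minus strand) was patchier. It had 0 to 445 CPM with a median of 1.55 CPM in Gata1-high cells, and 0 to 411 CPM with a median of 36.7 CPM in Gata1-low cells. The gene reached 10 CPM in 10 of 28 Gata1-high and in 11 of 18 Gata1-low cells, and the ranges overlap almost fully. Its mean was 56.6 CPM in Gata1-high and 86.2 CPM in Gata1-low cells, a ratio of 1.52 for Gata1-low over Gata1-high. The log2 difference of −1.56 thus rests largely on cells at low level, and it was −0.86 with a pseudocount of 10. In granule-low cells it was 0.04. Igf2bp2 (chr16:22059009-22163299, minus strand) had 0 to 374 CPM with a median of 0.52 CPM in Gata1-high cells and 0 to 185 CPM with a median of 5.63 CPM in Gata1-low cells. It differed by −0.72 log2 units, and by 1.07 in granule-low cells, with means of 36.3 ± 85.9 CPM in Gata1-high and 33.2 ± 59.4 CPM in Gata1-low cells (SD, n = 28 and 18 cells).

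Per kilobase, Igf2bp3 was the leading family member in 29 of 46 cells, Igf2bp1 in 13 and Igf2bp2 in 4. Igf2bp3 led in 19 of 28 Gata1-high and 10 of 18 Gata1-low cells, and Igf2bp1 in 6 Gata1-high and 7 Gata1-low cells. Of the summed mean level per kilobase, Igf2bp3 made up 45.7% in Gata1-high and 61.1% in Gata1-low cells. Of the 46 cells, 22 had 1 of the 3 genes at 10 CPM, 15 had a pair, 6 had all 3 and 3 had none. Igf2bp2 reached 10 CPM with Igf2bp3 in 13 cells and without it in 1. Igf2bp1 did so with Igf2bp3 in 13 cells and without it in 8. Whether the genes shared cells more or less often than their separate frequencies give was not tested.

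**Figure D3:**
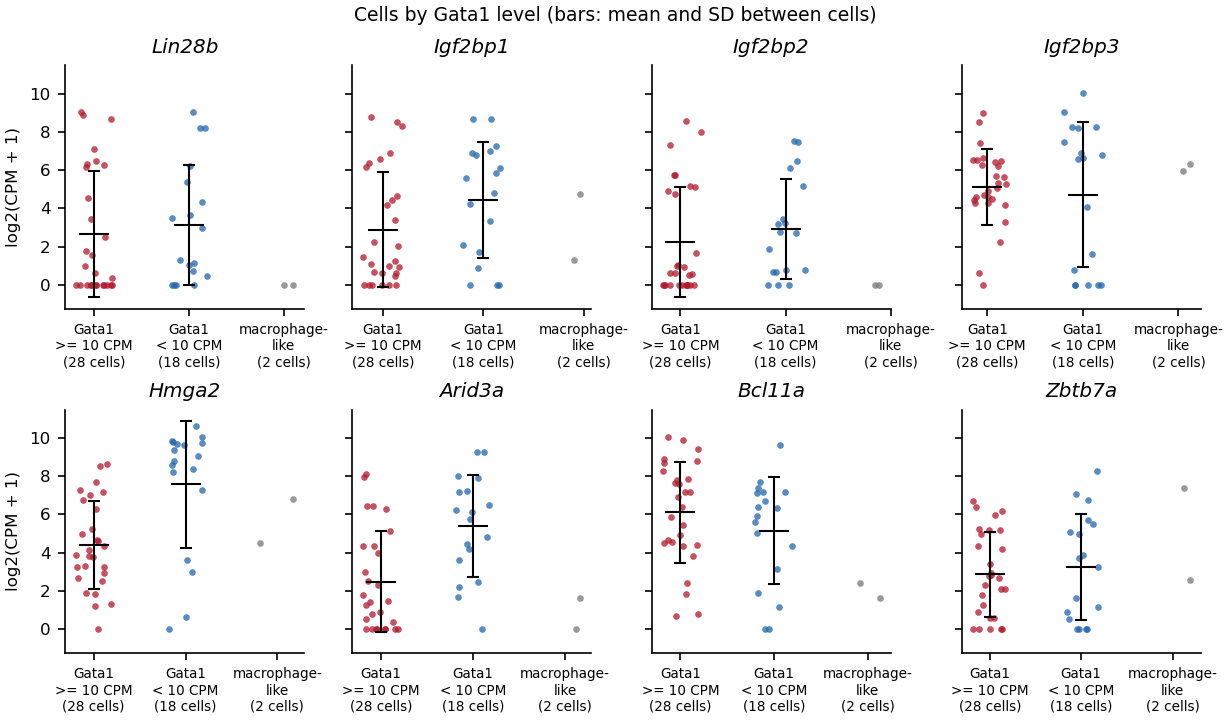
Level as log2(CPM + 1) (y axis) of 8 genes in each cell (points) for Gata1-high, Gata1-low and macrophage-like cells, with mean and SD between cells (bars). Hmga2 and Arid3a sit higher in Gata1-low cells, with 10 Gata1-low cells above every Gata1-high cell for Hmga2. Igf2bp3 is split into cells near 0 and, for the most part, cells above 6 in the Gata1-low set.

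Hmga2 (chr10:120361275-120476469, minus strand), the chromatin protein of the program, had the widest difference by Gata1 level among the 9 genes. Gata1-high cells held 0 to 402 CPM with a median of 15.0 CPM, and Gata1-low cells held 0 to 1595 CPM with a median of 479 CPM. Of the Gata1-low cells, 10 lay above the highest Gata1-high cell, and 0 Gata1-high cells lay above the median of the Gata1-low cells. The mean was 65.0 ± 106 CPM in Gata1-high against 537 ± 440 CPM in Gata1-low cells (SD, n = 28 and 18 cells), and the log2 difference was −3.17. Over all 46 cells its rank correlation with Gata1 was −0.54, but it was −0.02 within the Gata1-high cells and −0.67 within the Gata1-low cells. Gata1 in the Gata1-low set had a median of 0.716 CPM, so its ranks there rest on few reads near the limit of the assay. Only 0.79% of 8600 genes had a lower log2 difference.

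Within the Gata1-low set Hmga2 was not uniform. In 14 of the 18 cells it ran from 155 to 1595 CPM, and in the other 4 it was at 0, 0.56, 6.86 and 10.995 CPM. The first and second of those 4 had the high granule sums of 33031 and 71485 CPM. The other pair had sums of 325 and 18.9 CPM and were the granule-low cells of the set. Cd34, a marker of early progenitors that the sort selected against as a surface protein, was at 2.29 CPM or less in these 4 cells, and at 0.711 to 1247 CPM with a median of 369 CPM in the 14. The rank correlation of Hmga2 with Mpo was 0.53 within the Gata1-high cells and −0.09 within the Gata1-low cells. In granule-low cells the difference of Hmga2 turned to 0.85, with 51.6 CPM in 25 Gata1-high and 8.93 CPM in 2 Gata1-low cells. The part of granulocyte transcripts in the difference was not tested beyond these values.

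Arid3a (chr10:79927043-79955018, plus strand), a DNA-binding protein known from fetal lymphocytes as a let-7 target, followed the same direction. Gata1-high cells held 0 to 271 CPM with a median of 1.70 CPM, and Gata1-low cells held 0 to 617 CPM with a median of 61.8 CPM. It reached 10 CPM in 9 of 28 Gata1-high and in 14 of 18 Gata1-low cells. The sets overlap, with 2 Gata1-low cells above every Gata1-high cell and 5 Gata1-high cells above the median of the Gata1-low cells. The mean was 31.2 ± 68.9 CPM in Gata1-high against 133 ± 192 CPM in Gata1-low cells (SD, n = 28 and 18 cells), the log2 difference was −2.91, and 1.09% of genes had a lower one. In granule-low cells the difference was −2.97. Of the 3 Gata1-high cells with high granule genes, 1 held 86.0 CPM of Arid3a and 13.2 CPM of Hmga2, another 84.1 and 155 CPM, and the last 271 and 364 CPM.

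**Figure D4:**
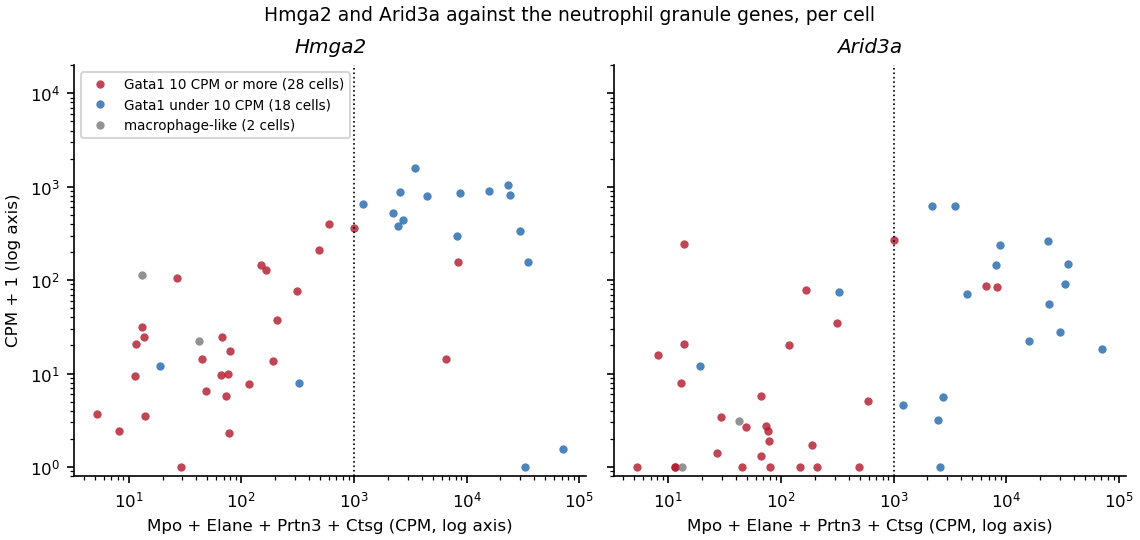
Hmga2 (left) and Arid3a (right), as CPM + 1 on a log axis, against the summed CPM of Mpo, Elane, Prtn3 and Ctsg on a log axis, for each cell. The dotted line marks 1000 CPM of granule genes. Red Gata1-high cells lie mostly left of it (25 of 28) and blue Gata1-low cells mostly right of it (16 of 18). Of the latter, the cells at 71485 and 33031 CPM of granule genes have Hmga2 near 0. The cell between them, at 35368 CPM, has 155 CPM of Hmga2.

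Bcl11a (chr11:24078056-24174123, plus strand), the best known repressor of fetal globin in humans, had the highest mean level per kilobase of the 3 globin repressors. Gata1-high cells held 0.629 to 1053 CPM with a median of 99.2 CPM, and Gata1-low cells held 0 to 796 CPM with a median of 69.4 CPM. All 28 Gata1-high cells had a read and 24 reached 10 CPM, against 16 and 13 of the 18 Gata1-low cells. The sets overlap widely, and the mean of 211 ± 282 CPM in Gata1-high against 112 ± 183 CPM in Gata1-low cells (SD, n = 28 and 18 cells) gave a log2 difference of 0.95. That is just under the fold of 1 log2 unit used here, and it was 1.03 on plain total counts. In granule-low cells it was 0.25. Klf1 is the erythroid activator known to act on the Bcl11a gene. The rank correlation of Bcl11a with Klf1 was 0.37 over 46 cells and 0.43 within the 28 Gata1-high cells, and 97.45% and 98.2% of genes had a lower one. With Gata1 itself the correlation was 0.20.

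Zbtb7a (chr10:81135220-81152995, plus strand), a zinc finger repressor of fetal globin in human cells, was low in most cells. Gata1-high cells held 0 to 102 CPM with a median of 5.52 CPM, and Gata1-low cells held 0 to 311 CPM with a median of 10.3 CPM. The means were 19.3 ± 27.99 CPM in Gata1-high and 41.6 ± 77.4 CPM in Gata1-low cells (SD, n = 28 and 18 cells), the sets overlap, and the log2 difference of −0.37 changed sign when the 5 cells of lowest total count were left out. In granule-low cells it was −2.67. The rank correlation of Zbtb7a with total count was 0.42 in Gata1-high cells, −0.67 in Gata1-low cells and −0.06 over all 46, and the part of depth in its difference was not tested. Its correlation with Klf1 over 46 cells was −0.10. Both repressors reached 10 CPM together in 14 of 46 cells, Bcl11a without Zbtb7a in 23, Zbtb7a without Bcl11a in 5, and neither in 4.

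Sox6 (chr7:115470872-116038796, minus strand), the SOX factor that works with BCL11A, was found in 1 Gata1-high cell. That cell had 14 reads, or 4.63 CPM, was the deepest of the 48 with 3211186 counts, and held 66.5 CPM of Gata1 and 410 CPM of Klf1. No cell reached 10 CPM, so the 95% Clopper-Pearson upper bound on that share is 7.397%, and 3 counts in 48 would be 6.25%. The related Sox5 was read in 4 cells and Sox13 in 9, of which 3 reached 10 CPM.

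Of the 9 genes, 8 passed the filter of a read in 10 cells and a mean of 5 CPM, and Sox6 did not. Among these 8, 3 were lower in Gata1-high cells by 1 log2 unit or more (Hmga2, Arid3a and Igf2bp1) and 0 were higher. Over all 8600 genes that passed, 13.1% were lower and 14.2% higher by that fold, 27.3% in either direction. In granule-low cells, 2 of the 8 were higher (Igf2bp2 and Igf2bp3) and 2 lower (Arid3a and Zbtb7a). With only 2 cells on the Gata1-low side, 36.7% of all genes were higher, 25.5% lower and 62.2% past the fold in either direction there, so that count is near the background. The median difference was −0.58 for the 8 genes and 0.09 for all genes. Of all genes that passed the filter, the 979 with a let-7 seed match had a median difference of 0.05, and the 7062 without one 0.09. Of those with a match, 14.6% were higher and 14.3% lower by the fold, and of those without one, 14.3% were higher and 13.2% lower. The 130 genes with 2 or more matches, among them Lin28b, Igf2bp1, Hmga2 and Arid3a, had a median of −0.10, with 13.8% higher and 18.5% lower.

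**Figure D5:**
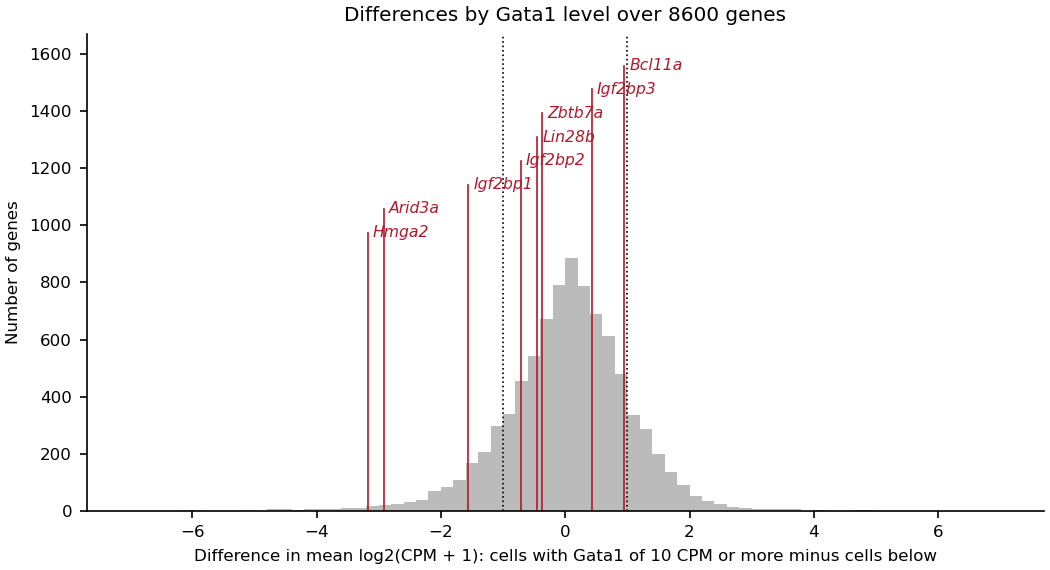
Number of genes (y axis, grey bars) by difference in mean log2(CPM + 1), Gata1-high minus Gata1-low cells (x axis), over 8600 genes, with red lines at the 8 genes that passed the filter and dotted lines at −1 and 1; the height of a red line carries no value. Hmga2 at −3.17 and Arid3a at −2.91 lie in the lower tail, and Bcl11a at 0.95 just inside the upper line.

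The 2 macrophage-like cells gave a check of a cell type outside the lineage. They held 111 and 21.4 CPM of Hmga2, 77.7 and 60.9 CPM of Igf2bp3, and 1.47 and 25.6 CPM of Igf2bp1. Zbtb7a was at 163 and 4.84 CPM, the first being the second highest value of the 48 cells. Bcl11a was at 4.40 and 2.08 CPM, Arid3a at 0 and 2.08 CPM, and Lin28b, Igf2bp2 and Sox6 were listed at 0 in both. Reads of 6 of the 9 genes were thus not limited to the other 46 cells.

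Cells carried mixed combinations of the 9 genes, with 2 to 7 of them at 10 CPM. The median was 4 genes in Gata1-high and 5 genes in Gata1-low cells. Lin28b and Igf2bp1 were at 10 CPM together in 12 of 46 cells, and 20 cells had neither. Of cells with Lin28b at 10 CPM, Igf2bp1 also reached it in 4 of 9 Gata1-high and 8 of 8 Gata1-low cells. The rank correlation of the pair was −0.05 within the 28 Gata1-high cells, 0.62 within the 18 Gata1-low cells and 0.23 over all 46. Over all 46 cells Hmga2 correlated with Igf2bp2 at 0.41, with Igf2bp1 at 0.35 and with Arid3a at 0.32. Within the Gata1-high and Gata1-low cells, Hmga2 with Igf2bp2 was at 0.35 in both. Hmga2 with Igf2bp1 was at 0.05 and 0.24 there, and with Arid3a at 0.11 and 0.15. The last 2 pairs were thus weaker within the sets than over all cells. Igf2bp3 and Bcl11a, the pair found most widely, shared 29 of 46 cells at 10 CPM, with a correlation of 0.18. Each of these values comes from the same sparse libraries and describes these cells only.

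Genes whose level ranked most like each of the 8 genes that passed the filter were listed by Spearman's rho over 46 cells. For Hmga2 they were H2afy, a histone variant, at 0.72, Satb1, a chromatin organiser, at 0.66 and Cd34 at 0.65, with Gm15915 at −0.59 and Tgfbr3, the type III TGF-beta receptor, at −0.57 at the other end. For Arid3a they were Plac8 at 0.68, Lbp at 0.62 and Guf1 at 0.61, with Car2, a carbonic anhydrase abundant in red cell precursors, at −0.64 and Tom1l1 at −0.61. The highest rho of Hmga2 exceeded that of 98.5% of genes and the one of Arid3a that of 96.6%, the median gene having a highest rho of 0.56. Each neighbour named here differed by Gata1 level itself, from −1.30 for H2afy to −6.03 for Plac8 among the highest. Among the lowest neighbours the differences ran from 2.41 for Tom1l1 to 6.02 for Gm15915. These rhos over both sets therefore cannot be told apart from the split by Gata1 level.

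For the other 6 genes the highest rho lay among those of ordinary genes, above that of 28.7% of genes for Zbtb7a and of up to 77.3% for Igf2bp2. Lin28b ranked most with Pold3 (0.56), Eif2s2 (0.55) and Srpr (0.50), and least with Rps15a-ps4 (−0.48) and Rps15a (−0.47). Igf2bp1 ranked most with Gpank1 (0.60), Gins2 (0.59) and Adsl (0.55), and least with Fam216a (−0.57) and Tyk2 (−0.49). Igf2bp2 ranked most with Smg9 (0.60), Polq (0.53) and Macf1 (0.50), and least with Syn3 (−0.44) and Tm9sf3 (−0.43). For Igf2bp3 they were Mogs (0.56), Plin3 (0.53) and Bri3bp (0.53), with Gstp1 (−0.51) and Parp4 (−0.49) lowest. Bcl11a ranked most with Nxt2 (0.56), Urb2 (0.55) and Mettl13 (0.54), and least with Mgme1 (−0.51) and Cd37 (−0.46). For Zbtb7a they were Mdm1 (0.54), Tnrc6a (0.52) and Haus3 (0.50), with Uimc1 (−0.50) and Syce2 (−0.48) lowest.

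Genes of the let-7 and Lin28 pathway were found on both sides of the Gata1 limit. Of the 17 that passed the filter, 5 were higher by 1 log2 unit or more and 1 lower, with a median of 0.43. Over all 8600 genes, 14.2% were higher and 13.1% lower, with a median of 0.09. In granule-low cells 8 of the 17 were higher and 1 lower, where all genes had 36.7% higher and 25.5% lower. Zcchc6, a uridylyl transferase that tails let-7 precursors, had the largest difference at 2.77, with means of 68.4 CPM in Gata1-high and 6.08 CPM in Gata1-low cells. Ago1, an effector of microRNA silencing, differed by 1.33. Dgcr8 and Drosha, the nuclear enzyme complex that cuts microRNA precursors, differed by 1.12 and 1.03. The let-7 hairpin genes had next to no reads, with 3 reads in 1 cell for Mirlet7a-1 and 3 reads in 2 cells for Mirlet7d. The assay copies polyadenylated RNA, so it sets no limit on mature let-7.

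Among 27 let-7 target and fetal growth genes that passed, 3 were higher and 6 lower, with a median of 0.15. Of the 6 lower genes, 3 are Hmga2, Arid3a and Igf2bp1 themselves. Of all genes 14.2% were higher and 13.1% lower. In granule-low cells 7 of the 27 were higher and 8 lower, where all genes had 36.7% higher and 25.5% lower. Tgfbr3 was the gene with the largest difference, at 4.86, with 269 CPM in Gata1-high and 25.6 CPM in Gata1-low cells. Ccnd1, the cyclin of entry into the cell cycle, differed by −2.24, with 16.1 CPM in Gata1-high and 61.4 CPM in Gata1-low cells. Igf2, the growth factor messenger for which the IGF2BP proteins are named, had 0 reads in all 48 cells. Of 15 IGF2BP client and partner genes, 3 were higher and 0 lower, with a median of 0.18. In granule-low cells 4 of the 15 were higher and 2 lower, beside the same 36.7% and 25.5% of all genes. Mettl3, which writes the m6A mark that IGF2BP proteins read, differed by 1.89, Ythdf3 by 1.23 and Ythdf1 by 1.02.

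The partners of the globin repressors were mostly present on both sides of the Gata1 limit. Of 31 corepressor genes that passed, 7 were higher and 1 lower, with a median of 0.44, beside 14.2% higher and 13.1% lower over all genes. In granule-low cells 13 were higher and 9 lower, where all genes had 36.7% higher and 25.5% lower. Pogz differed by 1.75, and Mta3, a NuRD subunit, by 1.68. Smarca4, a chromatin remodelling ATPase, differed by 1.67, and Rcor1, a partner of the histone demethylase LSD1, by 1.59. Dnmt3a, a DNA methyltransferase, differed by −1.24, with 61.98 CPM in Gata1-high and 139 CPM in Gata1-low cells.

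Among 24 other regulators of globin switching, 9 were higher and 2 lower, with a median of 0.50, beside 14.2% higher and 13.1% lower over all genes. In granule-low cells 8 were higher and 7 lower, with a median of −0.18, where all genes had 36.7% higher and 25.5% lower. The sign of the median was thus not kept there. Klf1 was at 0 to 484 CPM in Gata1-high cells, with a mean of 121 CPM, and at 0 to 4.57 CPM in Gata1-low cells, with a mean of 0.45 CPM, a difference of 4.22. Tal1, an erythroid transcription factor, differed by 2.79, and Eif2ak1, the heme-regulated kinase HRI, by 2.57. Satb1 differed by −3.30, with 8.85 CPM in Gata1-high and 101.7 CPM in Gata1-low cells, in the direction of Hmga2, with which it ranked.

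The targets of the repressors could not be followed. Of 12 globin genes, 11 were listed at 0 in all 48 cells, embryonic and adult forms alike, and Hbq1b had 20 reads in 1 macrophage-like cell. Whether globin reads were removed before deposit is not given in the sources used here, so the zeros set no limit on globin RNA. Of the paralogs, Bcl11b had 10 reads in 6 cells and Zbtb7b was read in 9 cells. Hmga1 had 1 read in 1 cell, a value that is uncertain because reads of a near-identical copy can be lost in counting.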

How the data were processed

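Single cells were captured and their RNA copied to full-length cDNA by SMART-Seq in the Fluidigm C1 system, per the labels' protocols. The submitters' processing notes name TopHat2 2.0.12, featureCounts 1.4.6 of Subread and mm10. The authors deposited a table of raw counts per gene and cell, used here, and a table of log2 normalized counts, which equals log2 of the deposited count over a DESeq size factor, plus 1, within 1e-06. Gene annotation and strand setting are not given in the sources used here. Of 24062 genes, 9946 had no read.

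The members and lists were chosen with earlier results of these data known. Cells are not replicates, so differences and Spearman correlations are descriptions. CPM used TMM library sizes of edgeR 4.0.16 in R 4.3.3, with a pseudocount of 1. Genes compared needed a read in 10 cells and a mean of 5 CPM, which 8600 besides Gata1 had. Cells with 1000 CPM or more of C1qa, C1qb and C1qc together were called macrophage-like. Named are the 9 genes, the 3 highest and 2 lowest neighbours by rho of the 8 that passed, and up to 4 genes of each list past 1 log2 unit. Genes beyond these were named after their values were seen. Alternatives were other library sizes (DESeq2 1.42.0 size factors, plain totals), limits, pseudocounts, depth and cells. The difference step was checked on simulated data. Python 3.11.15 with numpy 2.4.6, scipy 1.17.1 and pandas 2.3.3 was used, and matplotlib 3.10.9 for figures. Sequences are from RefSeq (GRCm38.p6) and GENCODE M21 (GRCm38).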

Additional observations from a re-analysis of the deposited data

How the results depend on the processing

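With granule genes under 1000 CPM (25 Gata1-high and 2 Gata1-low cells, chosen after seeing the data), the difference was 0.85 for Hmga2, 0.042 for Igf2bp1 and 1.07 for Igf2bp2, all 3 reversed, Zbtb7a was −2.67 and Igf2bp3 1.08, and the counts were 3154 genes higher and 2192 lower, against 1220 and 1126 in all 46 cells. A pseudocount of 10 gave 348 higher and 419 lower. Without the filter on low values, 1244 genes were higher and 1174 lower among 14115, which lowers the shares to 8.81% and 8.32%. Over the other settings Hmga2 ran from −4.84 (Gata1 limit 1 CPM) to −2.19 (limit 100 CPM), and Arid3a from −2.97 to −1.68. Leaving out each cell in turn gave −3.62 to −2.99 for Hmga2, −3.23 to −2.68 for Arid3a and −1.82 to −1.31 for Igf2bp1. Igf2bp1 was under the fold at a Gata1 limit of 100 CPM (−0.88) and a pseudocount of 10 (−0.86). Zbtb7a was 0.09 at a limit of 1 CPM, −1.15 at 100 CPM and 0.37 without the 5 cells of lowest total count, Lin28b −1.02 at 1 CPM and 0.51 at 100 CPM, and Igf2bp3 −0.27 with a pseudocount of 10. Between 2 and 4 of the 8 genes were lower by the fold. Bcl11a ran from 0.23 to 1.58. The cause of these shifts was not tested. DESeq2 size factors moved the median of all genes to 0.01 and plain totals to 0.14. No paired analysis was possible because the 48 cells form 1 group. With 1 sample of 48 cells and many genes at 1 to 3 reads per cell, low levels of Lin28b, Igf2bp2 and Sox6 were not well resolved at this depth.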
